A study of Arabidopsis thaliana with 6 samples.

Results

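The genes described here belong to the PLAC8 domain family of Arabidopsis thaliana and are the loci grouped around AT1G49030. They were chosen by locus from a list of 10, and a locus was kept where the platform annotation gave it a probe set that names no other gene. Of the 10 loci, 5 had such a probe set, 1 each, out of 13286 genes named alone by a probe set on the array. These were AT1G49030, AT1G52200, AT2G40935, AT3G18450 and AT3G18460. For AT1G14870 (PCR2), AT1G14880 (PCR1), AT1G58320, AT3G18470 and AT5G35525 no probe set was named in the annotation used, and they were not analysed here. AT1G49030 had drawn attention to the family by its difference between the genotypes, so that difference and those of the other members in the same comparison are given as descriptions. The adjusted p-values printed for members are those of the fit over all probe sets and are no independent evidence.

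PLAC8 proteins are small, cysteine-rich proteins that sit in or at membranes. The plant branch holds the PLANT CADMIUM RESISTANCE proteins. PCR1 lowers the cadmium content of yeast cells that express it, and PCR2 moves zinc out of plant cells. The tomato fruit weight gene FW2.2, which restrains cell number in the fruit, belongs to the same family, as do the Arabidopsis calcium channel proteins MCA1 and MCA2. The RefSeq gene table used for names calls AT1G14880 and AT1G14870 PCR1 and PCR2 and lists all 5 measured members by locus, without a symbol, so no function is given to them here. The files hold no domain annotation, and the family label could not be checked against the data.

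The study addressed AtR8, a long non-coding RNA, and its part in defence. Whole seedlings of the accession Wassilevskija, aged 10 days, were held for 6 h in water purged with air, which the labels call a hypoxic stress, and then recovered for 22 h on agar medium. There were 3 arrays of wild-type seedlings and 3 of the atr8 mutant, both in the Wassilevskija background and both given the stress and the recovery, so unstressed seedlings were not analysed here. The series calls the arrays of each genotype biological replicates, and the labels do not say how many independent lines the mutant arrays represent. The platform annotation named 0 probe sets for AtR8, whose own level was not analysed here.

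The values were intensities on a linear scale in arbitrary units, from 1 to 47944, with the same median of 192.9 on each array. Since the binding of each probe set differs, intensities of different probe sets are no measure of which gene had more transcript, and dim and bright refer here to the signal on the array. In whole seedlings a change in the share of a tissue and a change in RNA per cell cannot be told apart. Green tissue markers were clearly present and stood lower in the mutant, with the summed intensity of 4 measured genes of 9 listed at 70068 to 71769 in wild-type seedlings and 35737 to 43234 in mutant seedlings. The summed intensity of 3 measured root genes of 7 listed was 1165 to 1396 in wild-type seedlings and 844 to 1080 in mutant seedlings. Root genes did not move alike. GH9C1 read 353, 535 and 311 in the wild type and 312, 371 and 544 in mutant replicates 1, 2 and 3. EXPA18 on mutant replicate 1 (587) lay within its wild-type range, and on mutant replicates 2 and 3 (311 and 342) below it. EXPA7 lay lower on every mutant array, at 203, 313 and 252 in the wild type and 181, 161 and 77.3 in the mutant. No defining marker of either list was at 0, and the part of tissue makeup in the results below was not tested. Mutant replicates 2 and 3 stood apart in control probe sets. Actin signal near the 3′ end exceeded that near the 5′ end 28.9-fold and 19.6-fold there, against 2.13-fold in mutant replicate 1 and 2.17-fold to 2.66-fold in wild-type seedlings.

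The comparison of the genotypes asked which family members differ in the atr8 mutant after stress and recovery. AT1G49030 and AT1G52200 stood higher on every mutant array than on any wild-type array, and the other 3 members overlapped between the genotypes. Over all probe sets 11.2% had every mutant array above every wild-type array and 11% had every one below. Of the 5 members, 2 passed an adjusted p of 0.05 by limma, both higher in the mutant, and 0 passed lower. Over all 22746 probe sets tested, 0.919% passed in either direction, 0.712% higher and 0.207% lower, a split of 162 to 47 that became 156 to 158 without mutant replicate 1. Because this comparison brought up the family, nothing is read from the members' share. The median log2 difference of mutant minus wild type was −0.08 over the 5 members and −0.01 over all probe sets, with quartiles of −0.38 and 0.36 over all probe sets. Of the 5 measured members, 2 had estimates above the upper quartile of all probe sets and 3 had estimates below the median. The intervals of these 3, given below, all include −0.01, and that of AT3G18460 (−2.23 to 1.93) spans both quartiles. The other 5 listed members were not measured, so no statement is made for the family as a whole.

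AT1G49030 was dim in the wild type and moderate in the mutant. Its intensity was 20.3, 32.0 and 47.5 in wild-type replicates 1, 2 and 3 and 299, 383 and 418 in mutant replicates 1, 2 and 3. The groups lay far apart, and the lowest mutant array stood above the highest wild-type array. The mean intensity was 33.3 ± 13.7 (SD, n = 3) in wild-type seedlings and 367 ± 61.4 in mutant seedlings, a ratio of means of 11.0. On the log2(intensity + 16) scale used for the fit, the mutant stood higher by 2.98 ± 0.28 (SE), which is 7.90-fold, with a 95% interval of 2.30 to 3.66 (limma, adjusted p = 0.0233). A larger difference was found for few probe sets, since 99.88% of those tested had a smaller signed difference. The 16 added lowers the fold of such a dim gene, and the log2 difference was 3.49 with 1 added and 2.15 with 64 added.

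AT1G52200 was bright on all arrays, and its difference hardly depended on the value added. Its intensity was 2496, 2323 and 2511 in wild-type replicates 1, 2 and 3. In mutant replicates 1, 2 and 3 it was 5841, 6593 and 7761. The wild-type arrays lay close together, and every mutant array lay above all of them. The mean was 2443 ± 104.8 (SD, n = 3) in wild-type seedlings and 6732 ± 967 in mutant seedlings, 2.75-fold as a ratio of means. The log2 difference was 1.45 ± 0.20 (SE), with a 95% interval of 0.96 to 1.93 (limma, adjusted p = 0.042), and it was 1.43 with 64 added. With 1 added it was 1.45 and missed the threshold (limma, adjusted p = 0.0594). Of all probe sets tested, 97.44% had a smaller signed difference.

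**Figure D1:**
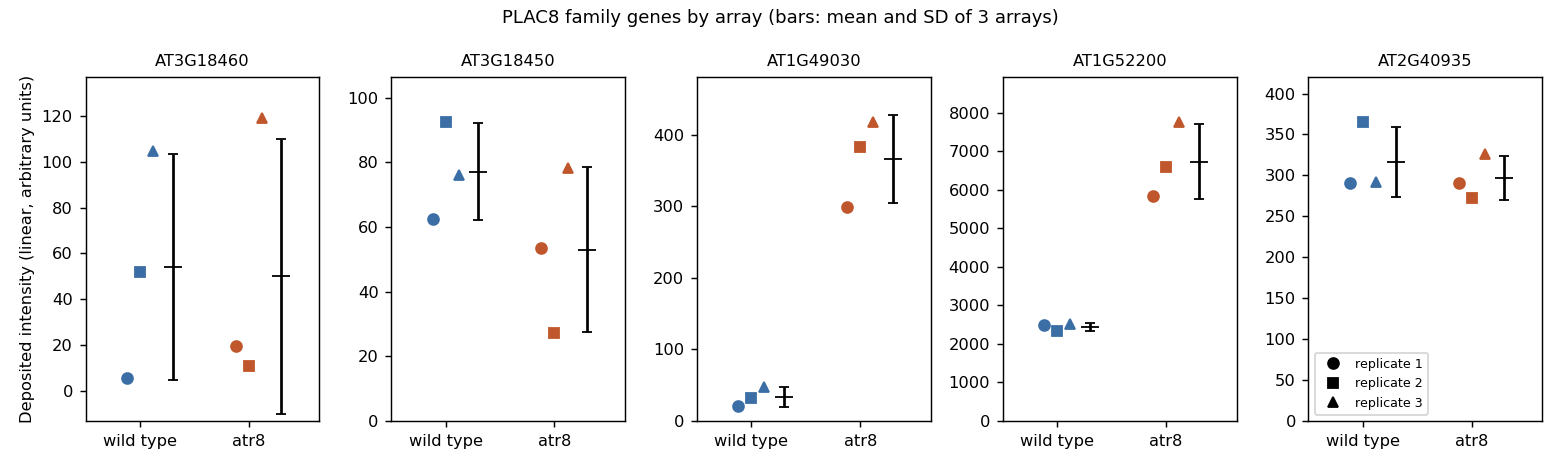
Deposited intensity (linear, arbitrary units) of the 5 measured PLAC8 family genes on each array, with wild-type arrays in blue, atr8 arrays in orange, a symbol for each replicate number, and the mean and SD of 3 arrays beside them. AT1G49030 (20.3 to 47.5 against 299 to 418) and AT1G52200 (2323 to 2511 against 5841 to 7761) do not overlap between the genotypes, while the other 3 genes do.

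On mutant replicate 1 both genes stood above every wild-type array. The actin ratio of that array lay near those of the wild type, and the part of such ratios in the members' values was not tested. The ratio of GAPDH on that array, 0.996, lay above its wild-type range of 0.794 to 0.844. On that array AT1G49030 exceeded the mean of the wild-type arrays by 2.71 in log2 units, against 3.06 and 3.18 on mutant replicates 2 and 3. AT1G52200 exceeded it by 1.25, against 1.43 and 1.66. The values on replicate 1 were the lowest of the 3 mutant arrays for both genes. Mutant replicate 1 tested alone against the wild type, with its spread assumed to be that of the wild-type arrays, did not pass for either gene (limma, adjusted p = 0.264 for AT1G49030 and 0.305 for AT1G52200). Leaving out mutant replicate 1 kept both past the threshold (limma, adjusted p = 0.0419 and 0.0476), and leaving out any one of the other 5 arrays did not (0.0871 to 0.134 and 0.116 to 0.153). In those 5 fits 0 of all probe sets passed by limma, while 2443 to 2594 had an unadjusted p under 0.05. The log2 difference itself stayed between 2.78 and 3.18 for AT1G49030 and between 1.34 and 1.54 for AT1G52200 when any one array was left out.

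AT2G40935 had much the same intensity in both genotypes. It read 291, 365 and 292 in wild-type replicates 1, 2 and 3 and 290.4, 273 and 326 in mutant replicates 1, 2 and 3. The 2 ranges overlapped, and the mutant was higher in 2 of the 9 possible pairs of a mutant and a wild-type array. Its log2 difference was −0.08 ± 0.20 (SE, n = 3 arrays per genotype), with a 95% interval of −0.57 to 0.40 (limma, adjusted p = 0.883). A difference of the size seen in AT1G52200 lies outside that interval.

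AT3G18450 and AT3G18460 are next to each other in the RefSeq gene order, followed by the unmeasured member AT3G18470. Both were dim and among the 30% of probe sets with the lowest mean intensity. AT3G18450 read 62.5, 92.5 and 76.2 in wild-type seedlings and 53.6, 27.2 and 78.2 in mutant seedlings. Only mutant replicate 2 lay well below the wild-type arrays, and mutant replicate 3 lay within their range. Its log2 difference was −0.49 ± 0.34 (SE), with a 95% interval of −1.31 to 0.33 (limma, adjusted p = 0.56).

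AT3G18460 was the least reproducible of the 5 genes. It read 5.72, 51.8 and 104.7 in wild-type seedlings and 19.8, 10.9 and 119 in mutant seedlings, so each genotype held arrays both near the bottom and well above it. The SD of log2(intensity + 16) was 1.26 within the wild type and 1.24 within the mutant, against 0.40 and 0.24 for AT1G49030 and 0.06 and 0.21 for AT1G52200. The log2 difference was −0.15 ± 0.85 (SE), with a 95% interval of −2.23 to 1.93 (limma, adjusted p = 0.955). With such an interval neither a rise nor a fall of the size seen in AT1G52200 was detectable.

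**Figure D2:**
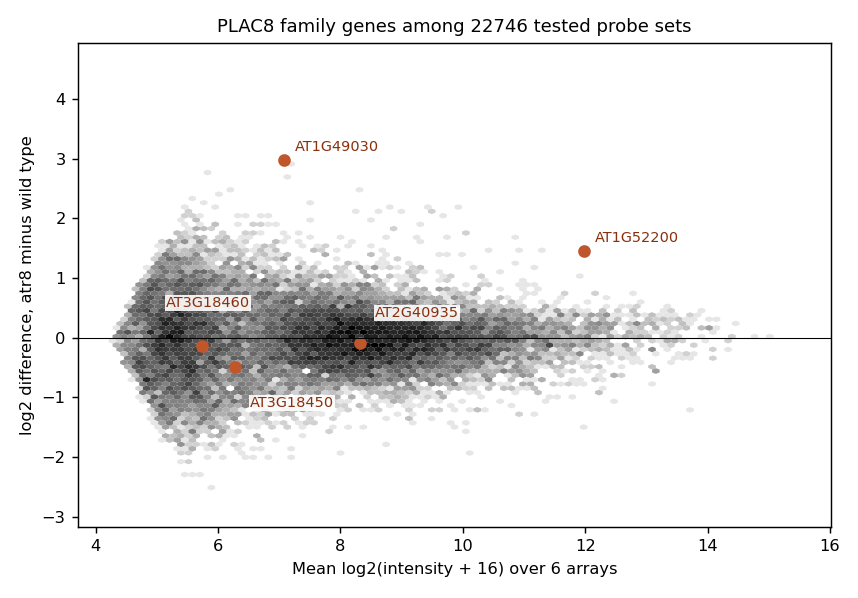
Log2 difference of atr8 minus wild type (vertical axis) against the mean of log2(intensity + 16) over 6 arrays (horizontal axis) for 22746 tested probe sets, in grey with darker shades for more probe sets, and the 5 PLAC8 family genes in orange. AT1G49030 stands at 2.98 and AT1G52200 at 1.45, where 99.88% and 97.44% of all tested probe sets had a smaller signed difference. The other 3 genes stand between −0.49 and −0.08.

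Other PLAC8 domain genes were looked at as a list of 13 loci written from general knowledge of the family, of which 8 were measured. The list includes AT1G68630 and loci outside the PLANT CADMIUM RESISTANCE group, and MCA1, MCA2 and PCR11 were not measured. By limma 0 of the 8 passed an adjusted p of 0.05, and 0 had an unadjusted p under 0.05. Over all 22746 probe sets tested, 0.919% passed and 3190 had an unadjusted p under 0.05. A list of 8 is too short to read anything from these counts of 0. Their median log2 difference was 0.08, near the −0.01 of all probe sets, with 6 estimates above 0 and 2 below. The smallest p belonged to AT1G11380, which read 225, 305 and 195 in wild-type seedlings and 194, 98.5 and 147 in mutant seedlings. The mutant arrays all lay below the wild-type arrays, replicate 1 by a narrow margin, and the log2 difference was −0.69 ± 0.31 (SE, limma, adjusted p = 0.387). Such a separation downward was found for the 11% of all probe sets given above.

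AT5G05350, the next by p, read 22.4, 15.0 and 73.1 in wild-type seedlings and 60.4, 44.4 and 126 in mutant seedlings, and the genotypes overlapped. Its log2 difference was 0.88 ± 0.51 (SE, limma, adjusted p = 0.496). The other 6 genes lay between −0.33 and 0.35. AT2G37110, AT4G23470, AT2G45010 and AT5G51400, all bright enough to lie outside the dimmest 30%, stood at 0.03, 0.13, 0.08 and 0.07. The highest upper end of a 95% interval among these 4 was 0.83, below the 1.45 of AT1G52200. AT1G63830, also outside the dimmest 30%, stood at −0.33 with an interval of −0.97 to 0.30. AT1G68630 and AT5G05350, both among the dimmest 30%, had intervals that include 1.45. These ran from −1.01 to 1.71 for AT1G68630, which stood at 0.35, and from −0.38 to 2.13 for AT5G05350.

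Genes that handle zinc and cadmium, the metals linked to the named members of the family, were listed by locus. Of 42 listed genes, 3 were measured, so they cover a small part of this system. By limma 0 of the 3 passed an adjusted p of 0.05, and 0 had an unadjusted p under 0.05. Of all 22746 probe sets tested, 0.919% passed and 3190 had an unadjusted p under 0.05. Beside these, 3 genes are too few to read anything from their counts. The zinc deficiency regulator bZIP19 read 914, 779 and 749.7 in wild-type seedlings and 1058, 936 and 951 in mutant seedlings. All its mutant arrays lay above the wild-type arrays, as for 11.2% of all probe sets. The difference was small, at 0.27 ± 0.19 (SE, limma, adjusted p = 0.57).

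ZIP6, of the ZIP family of metal transporters, read 184, 167 and 162 in wild-type seedlings and 156, 113 and 120.4 in mutant seedlings. Its mutant arrays all lay below the wild-type arrays, as for 11% of all probe sets. The log2 difference was −0.37 ± 0.20 (SE, limma, adjusted p = 0.47). ZIP9, of the same family, was dim and scattered within both genotypes, from 8.83 to 134 in wild-type seedlings and from 5.42 to 122 in mutant seedlings, with a log2 difference of −0.36 ± 0.91.

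**Figure D3:**
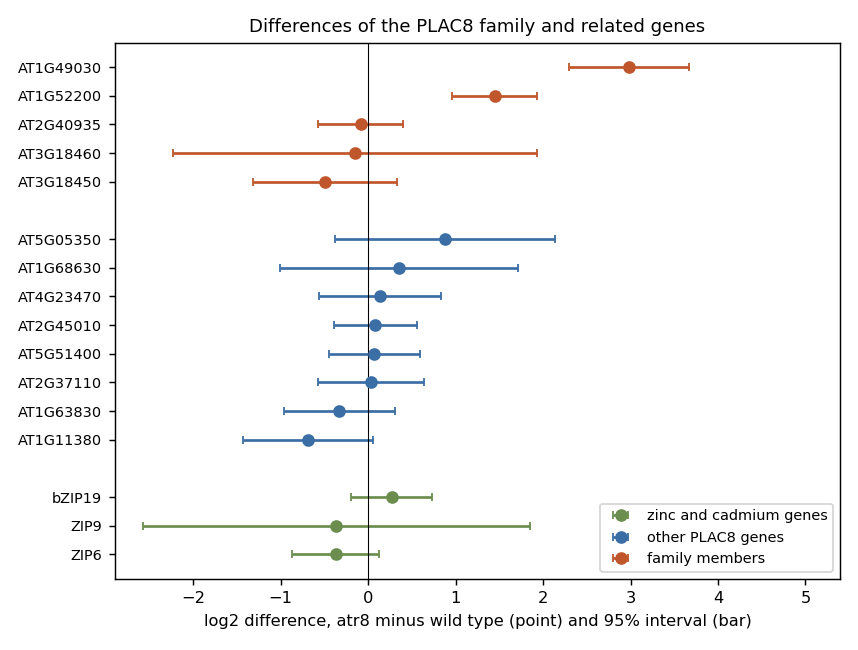
Log2 difference of atr8 minus wild type with its 95% interval from the limma fit for the 5 PLAC8 family members (orange), 8 other PLAC8 genes (blue) and 3 zinc and cadmium genes (green). The intervals of AT1G49030 (2.30 to 3.66) and AT1G52200 (0.96 to 1.93) lie above 0, and all others include 0.

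The array pattern of AT1G49030 was then set against 13431 other probe sets with a single gene, by Pearson's correlation of log2(intensity + 16) over the 6 arrays. The arrays share one normalization and fall into the 2 genotypes, so the measure mostly reads how cleanly the genotypes separate, and 463 probe sets had a correlation above 0.9. The most alike was AT1G66880 at 0.9982, which read 254, 334 and 349 in wild-type seedlings and 1050, 1234 and 1314 in mutant seedlings. AT1G22890 followed at 0.9981 with a log2 difference of 2.13 ± 0.27, from 132 ± 36.4 (SD, n = 3) to 624 ± 110.

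AT5G02550 correlated at 0.9976 with a far smaller log2 difference of 0.53 ± 0.18. AT1G51890 correlated at 0.9973 with 2.49 ± 0.22, and AT2G25510 at 0.9968 with 0.82 ± 0.18. The correlation takes no account of the size of a difference, and the differences of these 5 genes ran from 0.53 to 2.49 against 2.98 for AT1G49030.

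**Figure D4:**
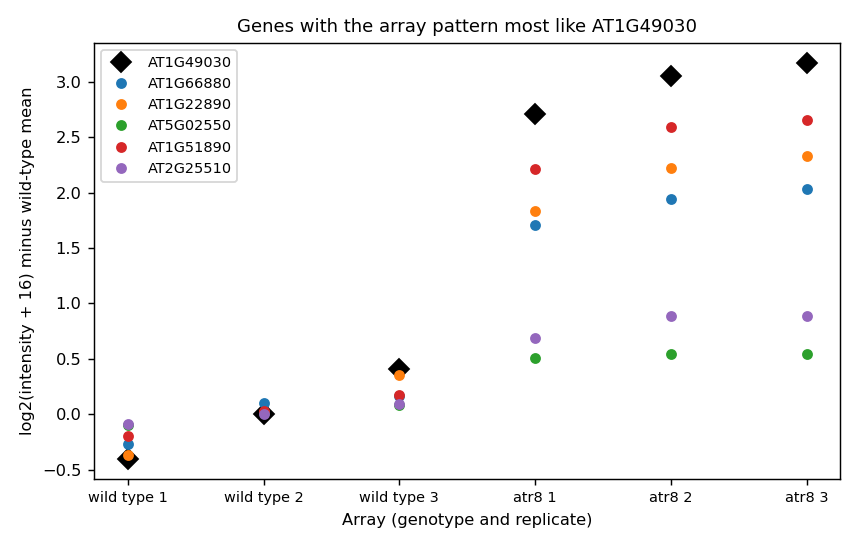
Log2(intensity + 16) minus the wild-type mean on each of the 6 arrays for AT1G49030 (black diamonds) and the 5 genes whose pattern correlated best with it (circles). All 6 genes lie higher on the mutant arrays, which follows from choosing the 5 by their likeness to AT1G49030. The step is largest for AT1G49030, which had drawn attention by its difference.

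Genes directly next to the 10 listed loci in the RefSeq gene order had a probe set of their own in 3 cases, all beside members that were not measured. AT1G14890 beside PCR1 stood at a log2 difference of 0.11 ± 0.19, and AT5G35530 beside AT5G35525 at −0.04 ± 0.18. ZW2, beside AT1G58320, read 5.35, 14.3 and 4.44 in wild-type seedlings and 98.1, 76.4 and 9.28 in mutant seedlings, with overlapping genotypes and a log2 difference of 1.45 ± 0.60 (SE, limma, adjusted p = 0.36). No measured member had a measured neighbour outside the family, so whether AT1G49030 or AT1G52200 differed along with the genes around them was not tested.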

How the data were processed

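The deposited values were intensities, 1 per probe set and array, on a linear scale. All 6 columns held the same sorted values, so the authors' intensities had been quantile normalized across arrays. How probes were summarized and background was treated was not given in the sources used here. Probe sets were named through the platform annotation and RefSeq genes (TAIR10.1), used for names and gene order only. Of 22810 probe sets, 64 controls were left out. The genotypes were compared on log2(intensity + 16) with limma 3.58.1 (lmFit, eBayes; R 4.3.3), two-sided, with genotype as the only term and Benjamini-Hochberg adjustment over 22746 probe sets. The number of arrays limits the precision. The fit was also run on simulated data with independent noise on each array. A deviation shared by some arrays was not covered there, and no result given here rests on that run. The members and gene lists were chosen with earlier results of these data known. Named were all measured members, up to 6 genes past the threshold per list or otherwise the 2 with the smallest p, the 5 genes most like AT1G49030, and direct neighbours; ZIP9 and the other listed PLAC8 genes were named beyond this rule. Alternatives were the replicate number as a block, pseudocounts of 1 and 64, median centring, cyclic loess, removal of the dimmest 30%, a trend with a robust prior, array weights, each array left out, mutant replicate 1 alone, a term for mutant replicates 2 and 3, and the mean over a gene's probe sets.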

Additional observations from a re-analysis of the deposited data

Results flagged for a closer look

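Control probe sets, which took no part in the comparison, stood above the wild-type range on mutant replicates 2 and 3 for actin and on all 3 mutant arrays for GAPDH. For actin, signal at the 3′ end over that at the 5′ end came to 28.9 (mutant replicate 2) and 19.6 (mutant replicate 3), while wild-type arrays gave 2.17 to 2.66. For GAPDH the mutant arrays gave 0.996, 1.75 and 1.701 in the order of their replicate numbers, while wild-type arrays gave 0.794 to 0.844. AT1G49030 read 299 and AT1G52200 5841 on mutant replicate 1, where the actin value was 2.13, and both lay above every wild-type array. The part of these ratios in the members' values was not tested.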

How the results depend on the processing

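Under the alternatives run, the log2 difference was 2.15 to 3.49 for AT1G49030 and 1.25 to 1.54 for AT1G52200. Every mutant array lay above every wild-type array for both genes. Leaving out arrays or changing the value added could therefore not turn the direction, and nothing is read from its being kept. Of the 5 members 2 passed by limma in the main analysis and under median centring, cyclic loess, a trend with a robust prior, array weights, 64 added, the mean over probe sets (1 per member, so the same values) and without mutant replicate 1. The count was also 2 without the dimmest 30%, but that filter reads the mean over both genotypes, so AT1G49030 stayed in through its mutant arrays and this supports no call. With 1 added 1 passed, AT1G49030. With the replicate number as a block 0 passed (adjusted p = 0.237 for AT1G49030 at 2.98, and 0.253 for AT1G52200), and 0 of all probe sets, with 2769 at an unadjusted p under 0.05. Same-numbered arrays deviated together at correlations of 0.00455 to 0.0141, too weak to call them paired, though each array correlated best with its own number. With mutant replicate 1 alone and with a term for mutant replicates 2 and 3, AT1G49030 stood at 2.71. Both set mutant replicate 1 against the wild type, so the estimate rests on 1 mutant array and is the same by construction. With the term 0 members and 0 probe sets passed, with 2291 at an unadjusted p under 0.05. Leaving out 1 array gave 0 to 2 members, 0 to 314 of all probe sets (314 without mutant replicate 1, 156 higher and 158 lower, against 162 and 47 over all arrays), and 2.78 to 3.18 for AT1G49030. Against 209 probe sets in all, 99 passed with 1 added, 336 with 64 added, 371 without the dimmest 30% and 1459 with a trend and robust prior, where 813 were higher and 646 lower. With 1 array left out the estimate of AT3G18460 ran from −0.86 to 0.40, above 0 without wild-type replicate 3 (0.40), mutant replicate 1 (0.10) or mutant replicate 2 (0.31). That of AT2G40935 ran from −0.15 to 0.021, the latter without wild-type replicate 2. By limma 0 other PLAC8 genes and 0 zinc and cadmium genes passed under any alternative. Causes were not tested.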
